A study of Rattus norvegicus with 6 samples.

Results

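The efflux pumps described here are 10 rat genes whose products move drugs, toxins and their conjugates out of cells. They are 9 ATP-binding cassette (ABC) transporters (Abcc1 to Abcc6, Abcb1a, Abcb1b and Abcg2) and Slc47a1, which encodes the proton-coupled cation exchanger MATE1. Members were taken as all non-control array probes whose transcript accession belongs to one of these genes. These were 10 of 15645 named genes on the array, with 23 of 61537 probes. All 23 probes passed the filter on dim signals, so all 10 genes were tested, among 32956 transcripts in all.

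Renal cortex came from 6 male Sprague-Dawley (Crl:CD(SD)) rats, bought at 5 weeks of age. The vehicle group was 3 rats given corn oil for 4 weeks. The other 3 rats were given 300 mg/kg/day of TBBC for the same 4 weeks. TBBC is thiobis(6-tert-butyl-m-cresol) in its 4,4' form, a phenolic antioxidant. Each rat had 1 single-colour Agilent array, and the study asked which cortical transcripts differ after TBBC. Levels are log2 of the spot signal over the array's 75th percentile, so a level of 0 is that percentile, and a difference of 1 is 2-fold.

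Organic anions and cations enter the proximal tubule cell from the blood side and leave it into the urine through apical pumps. Of the genes here, Abcc2 (MRP2), Abcc4 (MRP4), Abcb1a and Abcb1b (the P-glycoproteins of rodents), Abcg2 (BCRP) and Slc47a1 act at the apical membrane of the tubule. Abcc1 (MRP1), Abcc3 (MRP3), Abcc5 (MRP5) and Abcc6 (MRP6) are basolateral and export toward the blood. ABC pumps spend ATP, and the MRP pumps prefer conjugates with glutathione, glucuronate or sulfate. MATE1 instead exchanges protons for organic cations, downstream of the basolateral cation carriers of the Slc22 family.

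Between 67.1% and 70.9% of probes lay well above background on each array, and no spot was saturated. Slide 1 (scan 1) carried all vehicle arrays plus TBBC 1, and slide 2 (scan 2) carried TBBC 2 plus TBBC 3. Treated rats varied more, with a median SD per transcript of 0.23 against 0.13 in vehicle rats. The probes of all 13 proximal tubule markers passed the filter. Their summed signal, in multiples of the 75th percentile, was 3371 to 3645 in vehicle rats and 2628 to 3311 in TBBC rats. The median of their log2 differences was -0.22. In 10 of the 13 the groups overlapped, and in 3 every TBBC rat lay below every vehicle rat. In a piece of cortex, fewer cells of a type and less RNA per cell cannot be told apart.

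The conjugate pumps Abcc4 and Abcc3 rose after TBBC, 4.33-fold and 3.72-fold on average, and they were the 2 of 10 members that passed the test. Over all transcripts, 0.255% passed in that direction and 0.531% in either (limma, adjusted p under 0.05). Abcc2 and Abcb1b were on average 11.6-fold and 5.91-fold higher without passing. Abcb1a was higher too and did not pass, but its probe was well above background on 1 of 3 vehicle arrays, so the size of its difference is uncertain. Abcg2, Slc47a1 and Abcc6 were 1.33-fold, 1.22-fold and 1.53-fold lower, and Abcc1 and Abcc5 were 1.07-fold and 1.31-fold higher. None of these 5 passed. In all, 5 of 10 members were at least 2-fold higher, against 1.62% of all transcripts, and 0 were at least 2-fold lower, against 2.18%. In 6 members every TBBC rat lay above every vehicle rat, and in 3 every TBBC rat lay below. Over all transcripts these shares were 13.1% and 15.2%. Abcb1a met the filter through the TBBC arrays alone. Among the 9 members well above background on all 6 arrays, 4 were at least 2-fold higher and 5 lay wholly above vehicle, against 1.31% and 13.4% of the 30978 transcripts measured that way.

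**Figure D1:**
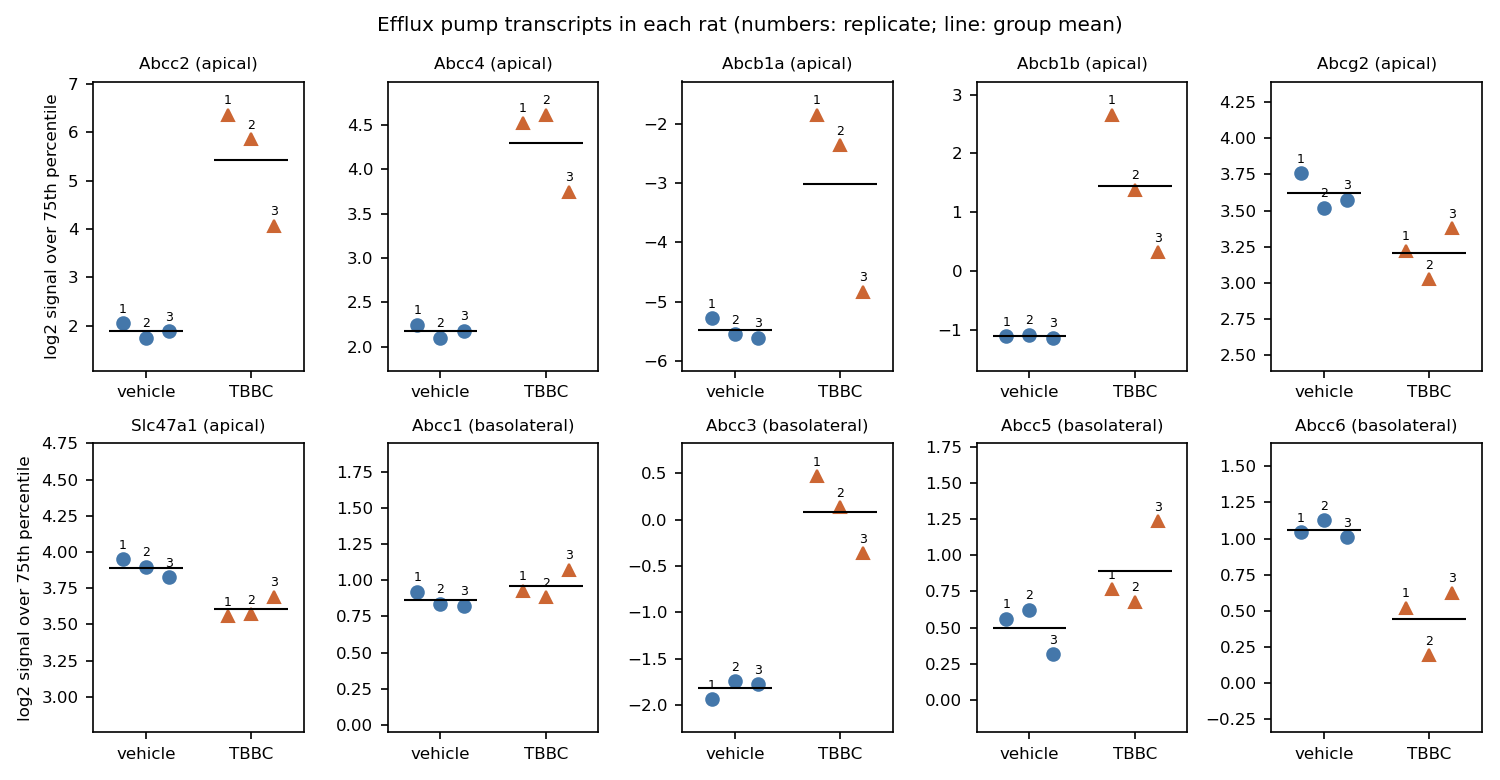
Level of each pump transcript (y axis, log2 signal over the array's 75th percentile) in 3 vehicle rats (circles) and 3 TBBC rats (triangles), with replicate numbers and group means as lines; each panel has its own y range. The groups are apart in every panel but Abcc1, and TBBC 3 is the lowest TBBC rat for Abcc2, Abcc4, Abcb1a, Abcb1b and Abcc3.

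**Figure D2:**
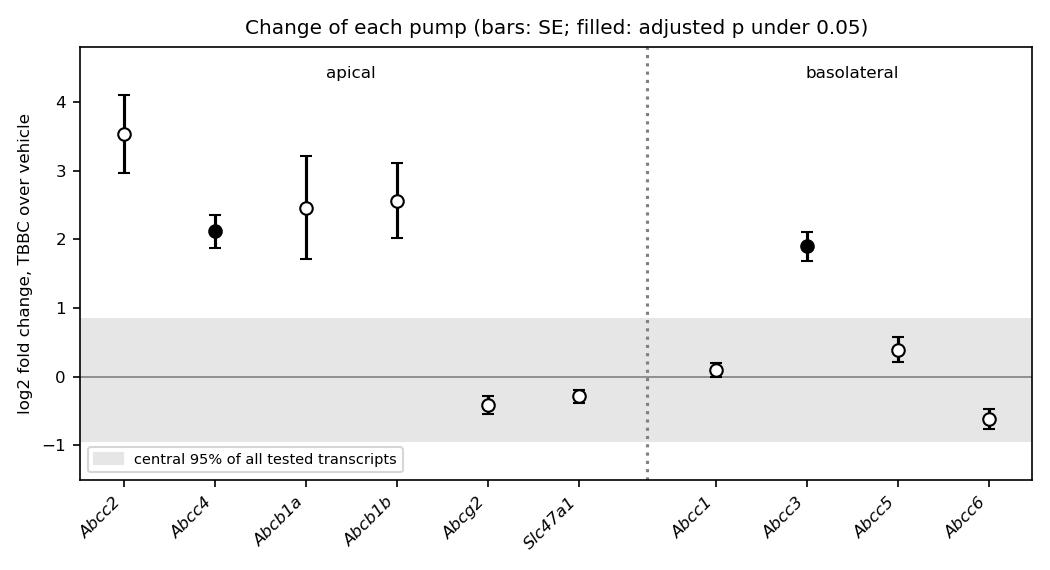
Log2 fold change of each pump, TBBC over vehicle (y axis), with its standard error, apical pumps on the left and basolateral pumps on the right. The grey band runs from the 2.5th to the 97.5th percentile of all transcripts tested, -0.93 to 0.84, and 5 pumps lie above it, of which the filled Abcc4 and Abcc3 passed the test.

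Abcc2, the apical pump for glutathione, glucuronide and bilirubin conjugates, had the largest average difference of the 10. Its levels were 2.05, 1.76 and 1.89 in vehicle 1 to 3, and 6.36, 5.86 and 4.07 in TBBC 1 to 3. All TBBC rats lay above all vehicle rats, and TBBC 3 lay well below the other treated rats. Against the vehicle mean the 3 treated rats were 22.0-fold, 15.6-fold and 4.51-fold higher. The log2 fold change was 3.53 ± 0.57 (SE, n = 3 per group), ranked 34 from the top among 32956 transcripts, and it did not pass (limma, adjusted p = 0.0622). Without TBBC 3 it passed, at 4.21 (limma, adjusted p = 0.00905), and without TBBC 1 it was 3.07 (adjusted p = 0.0844). The gene had 1 probe, so no other probe could be set beside it.

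Promoter sequence was looked at because several pumps were higher together. RefSeq windows of 250 bases before to 50 bases after the start (build GRCr8) were at hand for 7 of the 10 members. Abcc3, Abcc5 and Slc47a1 had no entry. The core of the antioxidant response element, TGACNNNGC, through which Nrf2 acts, was searched on both strands. It was found in 1 of the 7 windows, that of Abcc2, and in 12.1% of all 33469 windows of that length. The match began 18 bases after the Abcc2 start. The stretch around it is shown with the core in capitals, followed by the 250 bases upstream of the start with the GC boxes (GGGCGG on either strand, a motif of the factor Sp1) in capitals.
Abcc2, chr1:252613886-252613906, plus strand: ctgggaTGACATAGCgtacaa
Abcc2 upstream, chr1:252613625-252613874, plus strand: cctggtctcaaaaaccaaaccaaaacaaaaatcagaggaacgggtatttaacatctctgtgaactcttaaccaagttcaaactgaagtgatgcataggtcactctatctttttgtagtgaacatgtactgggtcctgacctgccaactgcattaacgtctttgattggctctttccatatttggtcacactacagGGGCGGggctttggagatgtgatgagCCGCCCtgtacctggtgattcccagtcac

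GC boxes stood 55 and 29 bases upstream in Abcc2. All 7 windows held at least 1, against 33.1% of all windows, so this motif was present in pumps that were higher and in pumps that were lower. The core of the xenobiotic response element, GCGTG, to which the aryl hydrocarbon receptor binds, was found in the windows of Abcc4, Abcg2 and Abcc1, against 29.7% of all windows. In Abcc4 the matches lay 226 and 17 bases upstream, on the opposite strand. The starts used for Abcc4, Abcb1a and Abcg2 lie inside the span of their genes, 1548, 90808 and 69418 bases in. Those of Abcb1b and Abcc1 lie 127 and 64 bases in. Other starts of these genes were not searched. The searched motifs did not overlap one another in the printed stretches. Absence of a match says only that the letters are not in the window.

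The next stretches show 1 pump that was higher and 1 that was lower. For Abcb1b only the 123 bases outside the gene's span are given, and for Abcc6, the basolateral pump with the lowest fold change, the 250 bases upstream. Capitals mark complete GC boxes.
Abcb1b, chr4:26280157-26280279, minus strand: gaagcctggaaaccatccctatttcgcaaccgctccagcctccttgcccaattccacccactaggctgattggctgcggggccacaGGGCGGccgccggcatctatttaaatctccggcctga
Abcc6, chr1:105637896-105638145, minus strand: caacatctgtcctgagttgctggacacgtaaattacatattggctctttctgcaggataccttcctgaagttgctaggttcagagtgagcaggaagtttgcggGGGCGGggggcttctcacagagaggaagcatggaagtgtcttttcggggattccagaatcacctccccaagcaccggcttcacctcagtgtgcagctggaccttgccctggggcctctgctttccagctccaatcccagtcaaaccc

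Abcc4, the apical pump for cyclic nucleotides, urate and conjugated or phosphorylated drugs, rose in the treated cortex. Its levels were 2.25, 2.10 and 2.18 in vehicle 1 to 3, and 4.52, 4.61 and 3.75 in TBBC 1 to 3. The groups were far apart, with TBBC 1 and TBBC 2 nearly level and TBBC 3 lower. The 3 treated rats were 5.08-fold, 5.40-fold and 2.97-fold above the vehicle mean. The log2 fold change was 2.12 ± 0.24 (SE, n = 3 per group; limma, adjusted p = 0.0343). The 4 Abcc4 probes gave log2 fold changes from 2.08 to 2.16, and all 4 passed when each probe was fitted by itself. The call held without TBBC 3 (limma, adjusted p = 0.00905). It was lost without any other array, with adjusted p-values of 0.155, 0.168 and 0.153 without vehicle 1, 2 or 3 and of 0.0581 and 0.0795 without TBBC 1 or TBBC 2.

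Abcb1a and Abcb1b encode the rodent P-glycoproteins, apical pumps for bulky uncharged and cationic drugs. Abcb1b was at -1.11, -1.09 and -1.14 in vehicle 1 to 3, and at 2.65, 1.38 and 0.32 in TBBC 1 to 3. The vehicle rats were almost identical, and the treated rats were all higher but spread widely, with TBBC 1 on top. Their folds over the vehicle mean were 13.6, 5.64 and 2.69. The log2 fold change was 2.56 ± 0.55 (SE, n = 3 per group) and did not pass (limma, adjusted p = 0.0924). The other 2 Abcb1b probes gave 3.54 and 2.85, and neither passed.

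Abcb1a was dim. Its levels were -5.27, -5.55 and -5.60 in vehicle 1 to 3, and its 1 probe was not well above background in vehicle 2 and vehicle 3. In TBBC 1 to 3 it was at -1.85, -2.36 and -4.83, well above background in each. TBBC 3 lay close to the vehicle rats and the other 2 treated rats well above them. The log2 fold change of 2.46 ± 0.74 (SE, n = 3 per group) did not pass (limma, adjusted p = 0.155), and with the normexp background correction it was 1.25 (adjusted p = 0.138). Both values rest on a vehicle mean that is mostly at background. Without TBBC 3 both P-glycoprotein genes passed, Abcb1a at 3.37 (limma, adjusted p = 0.0140) and Abcb1b at 3.13 (adjusted p = 0.0480). Without TBBC 1 they were at 1.88 and 1.96 and did not (adjusted p = 0.223 and 0.0789). The 2 genes are close copies, the files used here hold no probe sequences, and cross-hybridisation between them was not tested.

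Abcg2 and Slc47a1, apical pumps with high signals in both groups, were slightly lower after TBBC. Abcg2, which exports urate and sulfate conjugates, was at 3.76, 3.52 and 3.58 in vehicle 1 to 3, and at 3.22, 3.03 and 3.38 in TBBC 1 to 3. Every treated rat was below every vehicle rat, by a log2 fold change of -0.41 ± 0.13 (SE, n = 3 per group; limma, adjusted p = 0.176). Slc47a1 was at 3.95, 3.90 and 3.83 in vehicle 1 to 3, and at 3.55, 3.57 and 3.69 in TBBC 1 to 3. The groups were again apart, at -0.29 ± 0.10 (SE, n = 3 per group; limma, adjusted p = 0.194). The second probe of each gene gave -0.44 and -0.28. Neither gene passed, and neither passed under any of 22 alternative settings.

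**Figure D3:**
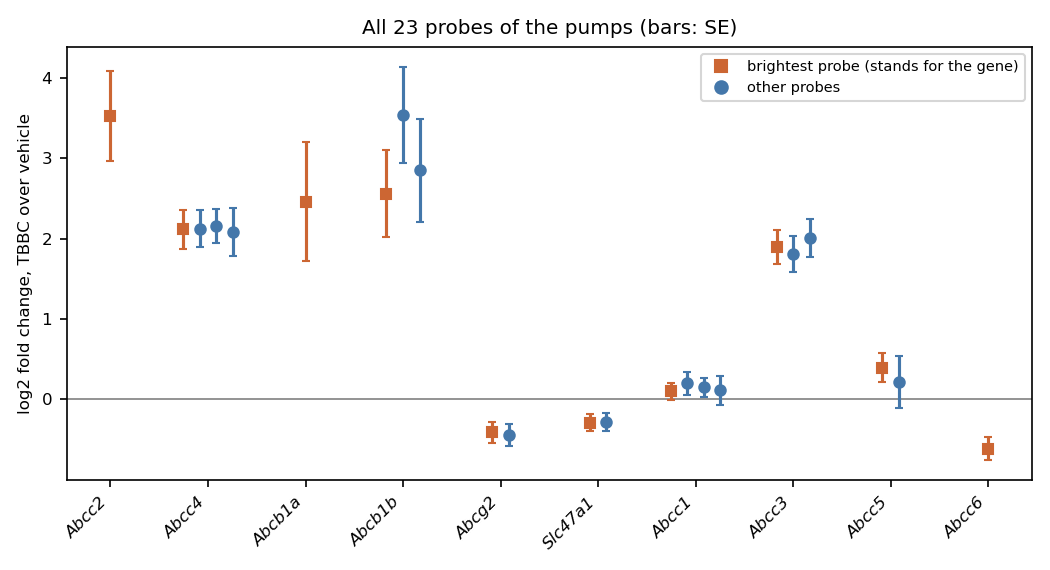
Log2 fold change, TBBC over vehicle (y axis), of all 23 probes of the 10 pump genes with standard errors; the square is the brightest probe, which stands for the gene. Probes of 1 gene lie on the same side of 0 in every gene with more than 1 probe, and the widest spread is that of Abcb1b, from 2.56 to 3.54.

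Among the basolateral pumps Abcc3, which returns glucuronides and bile salts to the blood, rose. Its levels were -1.93, -1.74 and -1.78 in vehicle 1 to 3, and 0.46, 0.13 and -0.36 in TBBC 1 to 3. All treated rats were higher, at 4.86-fold, 3.86-fold and 2.75-fold of the vehicle mean, with TBBC 3 lowest once more. The log2 fold change was 1.90 ± 0.22 (SE, n = 3 per group; limma, adjusted p = 0.0343). All 3 probes passed when fitted by probe, with values from 1.81 to 2.01. The call held without TBBC 1 (limma, adjusted p = 0.0427) or TBBC 3 (0.0175). It was lost without vehicle 1, 2 or 3 (0.162, 0.168 and 0.153) and without TBBC 2 (0.0955).

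Abcc1, a broad exporter of glutathione conjugates and leukotriene C4, was at 0.92, 0.84 and 0.82 in vehicle 1 to 3 and at 0.93, 0.88 and 1.07 in TBBC 1 to 3. It was the 1 member whose groups overlapped (log2 fold change 0.10 ± 0.10, SE; limma, adjusted p = 0.633), and its 4 probes ran from 0.10 to 0.20. Abcc5, a pump for cyclic nucleotides, was at 0.56, 0.62 and 0.32 in vehicle rats and at 0.77, 0.68 and 1.23 in TBBC rats. Its groups did not overlap on this probe but did on the dimmer one, and its log2 fold change of 0.39 ± 0.18 (SE) did not pass (limma, adjusted p = 0.292). Here TBBC 3 was the highest rat, in contrast to its place among the 5 pumps above.

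Abcc6, known for the loss that causes ectopic calcification, was at 1.04, 1.13 and 1.01 in vehicle 1 to 3 and at 0.52, 0.19 and 0.63 in TBBC 1 to 3. All treated rats were lower, to 0.69, 0.55 and 0.74 of the vehicle mean. The log2 fold change was -0.61 ± 0.14 (SE, n = 3 per group) and did not pass (limma, adjusted p = 0.103).

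Set side by side, the 6 apical pumps had a median log2 fold change of 2.29 and the 4 basolateral pumps one of 0.25. The median over all transcripts tested was -0.02. The apical median rests partly on Abcb1a, which was mostly at background in vehicle rats. With only probes well above background on all 6 arrays, which leaves Abcb1a out, it was 2.12. The apical medians of TBBC 1, 2 and 3, each against the vehicle mean, were 2.99, 2.46 and 1.04. Those of TBBC 1 and TBBC 3 also rest partly on Abcb1a. The basolateral medians were 0.17, 0.10 and 0.47. Both groups were mixed. Of the apical pumps 4 were at least 2-fold higher and 2 were lower, and of the basolateral pumps 1 was at least 2-fold higher, 2 were higher by less and 1 was lower. Each side had 1 member past the threshold. No test was made of the difference between the sides.

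Slide was partly shared between the groups. With the vehicle arrays and TBBC 1 alone, the log2 fold changes were 4.46 for Abcc2, 2.35 for Abcc4, 3.63 for Abcb1a, 3.77 for Abcb1b and 2.28 for Abcc3. These values rest on a single TBBC array, so the spread between treated rats cannot enter that fit, and no test result is given for it. In the full data the TBBC rats varied more than the vehicle rats for each of these 5. TBBC 1 was also the highest treated rat for Abcc2, Abcb1a, Abcb1b and Abcc3. The Abcb1a value again rests on a vehicle mean that is mostly at background. The other 5 members kept their direction on that slide. With slide as a fixed term none of the 10 passed, and Abcc4 and Abcc3 had adjusted p-values of 0.142 and 0.0813. With slide as a random block both passed, at 0.0452 and 0.0411.

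**Figure D4:**
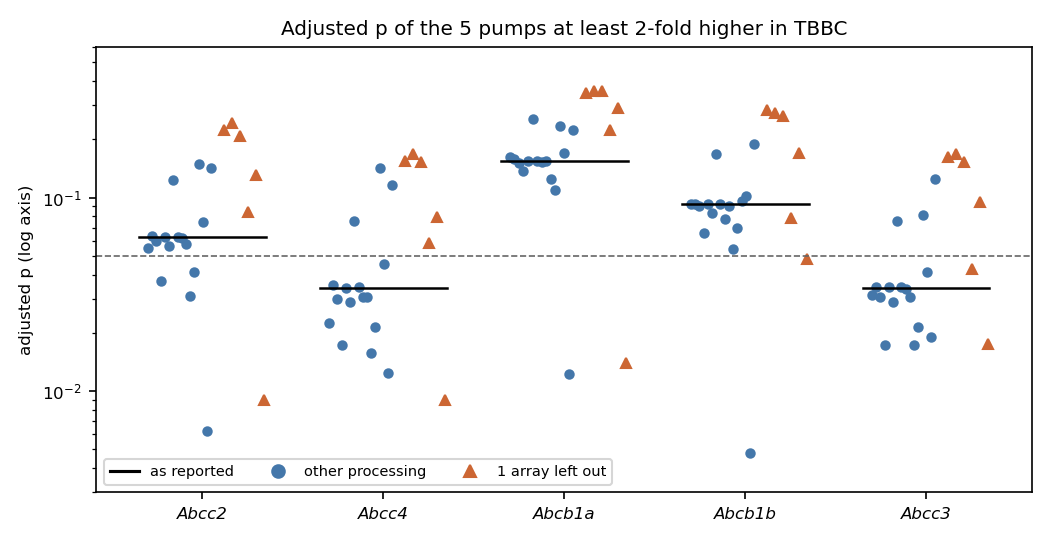
Adjusted p (y axis, log scale) of the 5 pumps that were at least 2-fold higher, as reported (line), under other processing (circles) and with 1 array left out (triangles); the dashed line is the threshold of 0.05. Abcc4 passed under 14 and Abcc3 under 15 of 22 alternatives, Abcc2 under 5 of 22, Abcb1b under 2 of 22 and Abcb1a under 2 of 21. These counts include the fit on the shared slide, which has a single TBBC array and so holds no spread between treated rats.

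The named genes with the most similar course over the 6 arrays were found by the root mean square difference of their log2 values, each counted from its own vehicle mean. Nearest to Abcc4 was Mthfd1l, a mitochondrial one-carbon enzyme, at 0.08, with differences of 2.20, 2.49 and 1.51 in TBBC 1 to 3 and a log2 fold change of 2.07 ± 0.25 (SE; limma, adjusted p = 0.0384). Next came Eif4ebp1, a translation repressor, at 0.15 and the proline synthesis enzyme Aldh18a1 at 0.16. Among those nearest to Abcc3 were Pck2 (mitochondrial PEP carboxykinase) at 0.21 and again Mthfd1l at 0.24. Mthfd1l, Eif4ebp1 and Aldh18a1 were lowest in TBBC 3 among the treated rats, as Abcc4 was, and Pck2 was lowest in TBBC 2. The genes were picked for their likeness, so a shared order of the rats follows from the choice.

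None of the other ABC proteins tested passed, against 0.531% of all transcripts. At that share 0 is the likely count for any list this short. Of the lipid and sterol transporters 9 of 17 were tested and 0 passed, with a median log2 fold change of 0.10. Abcb11, the bile salt export pump, was at 2.19 ± 0.42 (SE; limma, adjusted p = 0.0791), against a vehicle group in which 1 of 3 arrays was well above background. Abca2 was at -0.44 ± 0.13. Of the organelle transporters 10 of 11 were tested and 0 passed, with a median of -0.02. The peroxisomal Abcd3 was at -0.41 ± 0.11 and the lysosomal Abcb9 at -0.43 ± 0.14. Of the remaining ABC proteins and Slc47a2 7 of 10 were tested and 0 passed, with a median of -0.61. The potassium channel subunits Abcc9 and Abcc8 were at -0.67 ± 0.14 and -2.23 ± 0.68. Slc47a2 was not well above background on any array.

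None of the tested organic ion uptake carriers and their partners passed, against 0.531% of all transcripts. Of 10 such uptake partners 9 were tested, with a median of -0.35. In 8 of the 9 the log2 fold change was below 0, against 53.5% of all transcripts, and in 7 the groups overlapped. At least 2-fold lower were 4, against 2.18% of all transcripts. Of these, Slco4c1 and Slc22a7 met the filter through the vehicle arrays alone. The lowest was Slco1a1, at -4.18 ± 1.54 (SE), with overlapping groups. Slco4c1, a basolateral organic anion transporter, was at -2.53 ± 0.60 (SE; limma, adjusted p = 0.109), with 1 of 3 TBBC arrays well above background, and Slc22a2 (OCT2), the cation carrier that works in series with MATE1, at -1.33 ± 0.33 (adjusted p = 0.119). Slc22a2 was below the vehicle range in all 3 TBBC rats, as Slc47a1 was. Scaffold proteins that hold transporters at the apical membrane had a median of -0.21, with 0 of 8 past the threshold, Pdzk1 at -0.62 ± 0.11 (limma, adjusted p = 0.0696) and Nherf4 at -0.39 ± 0.13.

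Of 14 regulators linked to efflux pump genes all were tested and 0 passed, with a median of -0.09. The nuclear receptors Nr1h4 (FXR) and Hnf4a were at -0.61 ± 0.12 and -0.57 ± 0.12 (SE; limma, adjusted p = 0.0831 and 0.0845). Nfe2l2, the gene of Nrf2, was at -0.01 ± 0.21 and Ahr, that of the aryl hydrocarbon receptor, at -0.11 ± 0.15. In both the groups overlapped. In 3 regulators all TBBC rats lay above the vehicle rats and in 2 all lay below. The 3, named after their values were seen, were Bach1, a repressor at antioxidant response elements (1.07 ± 0.30; adjusted p = 0.136), Mafg (0.42 ± 0.12) and Keap1 (0.12 ± 0.10). Over these 6 lists 57 of 70 genes were tested and 0 passed in limma, against 0.531% of all transcripts. Of the 57 genes 18 had an unadjusted p under 0.05 (limma), or 31.6% against 20.0% of all transcripts. Their TBBC rats all lay above the vehicle rats in 8.77% and all below in 28.1%, against 13.1% and 15.2% of all transcripts.

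**Figure D5:**
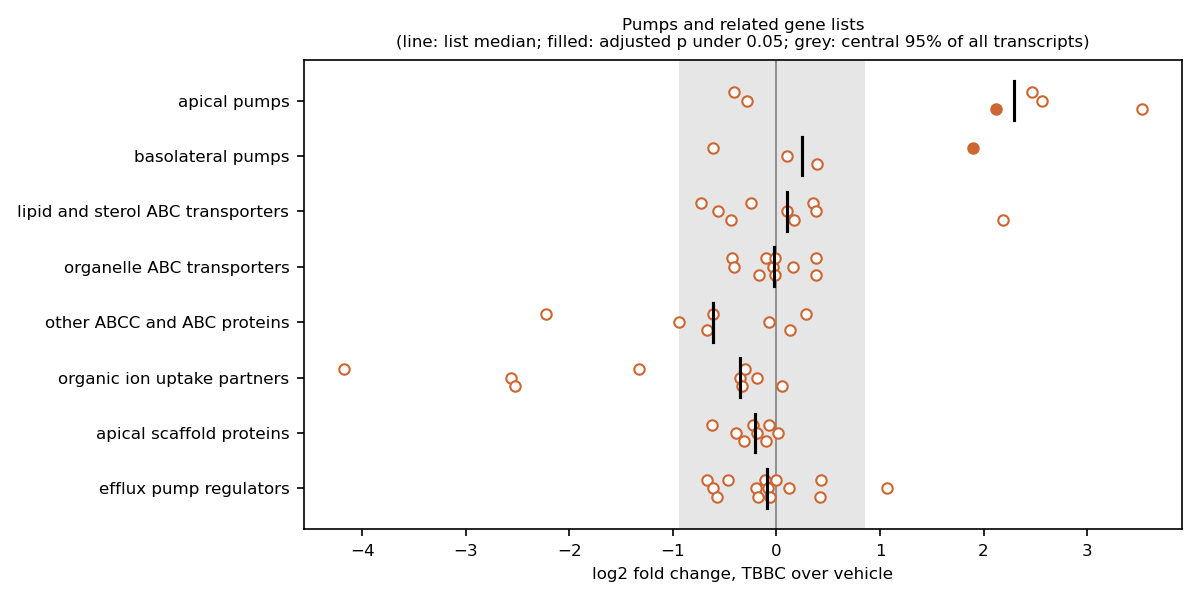
Log2 fold change (x axis, TBBC over vehicle) of every tested gene of the apical and basolateral pumps and of 6 related lists; the line is the list median, filled points passed the test and the grey band runs from the 2.5th to the 97.5th percentile of all transcripts. The filled points are Abcc4 and Abcc3, and over the 6 related lists 2 genes are at least 2-fold higher and 5 at least 2-fold lower.

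No gene of the 11 cell type marker lists passed the test, against 0.531% of all transcripts. The part of these cell types in the pump values was not tested. Of 12 leukocyte markers 10 were measured, with a summed signal of 72.4 to 86.2 in vehicle rats and of 60.6, 68.6 and 142 in TBBC 1 to 3. The sum mostly follows 1 gene, Lyz2, at 6.13, 6.07 and 6.34 in vehicle 1 to 3 and 5.82, 6.02 and 7.06 in TBBC 1 to 3. The median differences of the 10 markers from their vehicle means were -0.25, -0.47 and 0.83 in TBBC 1 to 3. TBBC 3, the highest, was the treated rat with the lowest levels of Abcc2, Abcc4, Abcb1a, Abcb1b and Abcc3. Of 10 endothelial markers 9 were measured, with sums of 33.5 to 39.1 in vehicle and 27.5 to 30.7 in TBBC rats; P-glycoprotein and BCRP are also known in endothelium. In that list Tie1 was lowest, at -0.79 ± 0.27, and Flt1 highest, at 0.14 ± 0.22. Thick ascending limb markers, 6 of 6 measured, summed to 387 to 443 in vehicle and 139 to 343 in TBBC rats. That sum mostly follows Umod, at 8.33, 8.34 and 8.53 in vehicle 1 to 3 and 8.18, 6.81 and 7.47 in TBBC 1 to 3. In 4 of the 6 every TBBC rat lay below every vehicle rat, and in 2 the groups overlapped. Egf was lowest, at -1.33 ± 0.28, and Cldn16 highest, at -0.11 ± 0.23.

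Hepatocytes carry several of these pumps, so markers of liver were read too. All 7 were measured, and their sum was 2.90 to 13.8 in vehicle and 16.7 to 213 in TBBC rats. On average 5 were lower and 2 higher, with a median log2 fold change of -0.95. In 2 every TBBC rat lay above every vehicle rat, and in 1 every TBBC rat lay below. The higher sums came from the fibrinogen chains Fgb (4.87 ± 1.13, SE) and Fga (3.66 ± 0.89). Alb and Ttr, the defining secreted proteins of liver, were lower on average (-3.94 ± 1.60 and -4.03 ± 1.75), and none of the 4 passed. In Alb and Ttr the groups overlapped, and 2 of 3 TBBC arrays were well above background. Alb was at 2.39, -3.46 and -0.13 in vehicle 1 to 3 and at -3.61, -2.97 and -6.44 in TBBC 1 to 3. Ttr was at 1.63, -4.34 and -1.61 in vehicle 1 to 3 and at -4.38, -3.89 and -8.14 in TBBC 1 to 3. Of 6 urothelial markers 4 were measured, with sums of 0.39 to 0.61 and 0.26 to 0.40. Of 6 adrenal cortex markers 2 were measured, with sums of 0.28 to 0.47 and 0.23 to 0.33, and Cyp11b1, Cyp11b2 and Mc2r were not well above background on any array. The sums for 3 of 5 adipocyte markers were 1.51 to 1.93 and 1.22 to 1.37. Podocyte markers (6 of 6) summed to 33.8 to 38.6 and 24.0 to 35.4, and distal convoluted and collecting duct markers (9 of 10) to 234 to 272 and 196 to 215. Fibroblast and smooth muscle markers (7 of 7) summed to 14.5 to 18.4 and 14.4 to 30.2, with TBBC 3 highest.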

How the data were processed

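Spots were read by the authors with Agilent Feature Extraction. Its version is 10.7.1.1 in the file headers and 10.7 in the submitters' processing notes. The intensity used, per the file headers, is the processed signal, which has no scaling between arrays. The authors' value table, a deposited linear ratio, equals that signal over a divisor 0.116% to 0.232% above the 75th percentile. Its column medians are 0.107 to 0.114, and it is neither logged nor centred. For the authors' own test no source was used here.

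Of 62976 spots 1439 were controls. Gene names came from unversioned accessions through RefSeq (GRCr8), which named 28206 of 61537 probes. The headers name another build, rn4. Signals were divided by the 75th percentile and put on the log2 scale. Outlier-flagged spots (0 to 9 per array) were left out. A probe was tested when well above background on every array of at least 1 group, and the brightest probe stood for its gene. Groups were taken from the titles and compared with limma 3.58.1 in R 4.3.3 (lmFit and eBayes, two-sided, Benjamini-Hochberg adjustment over 32956 transcripts, threshold 0.05). The series text calls the replicates biological. The number of arrays limits the precision. The procedure was tested on simulated data. In those data each transcript had the same spread in both groups, and no slide effect was added.

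Members and gene lists were chosen with earlier results of these data known. GC boxes were added after the sequences were seen. Text names all members, the 2 genes of smallest p in each related list, the ends of the endothelial, thick limb and liver marker lists (Alb and Fga were added after their values were seen) and the 3 nearest profiles to each called member, of which 1 is not reported here. Bach1, Mafg, Keap1, Nfe2l2, Ahr, Slc22a7, Slco1a1, Lyz2 and Umod were also named after their values were seen. The titles give both groups replicate numbers 1 to 3. Same-numbered deviations correlated at -0.09, 0.03 and -0.07, so the numbers were not used as pairs.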

Additional observations from a re-analysis of the deposited data

How the results depend on the processing

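All 10 members kept the direction of their log2 fold change under all alternatives that gave a value (22 each, 21 for Abcb1a). The median log2 fold change stayed between 1.69 and 2.99 for apical and between 0.13 and 0.32 for basolateral pumps. The 2 members past the threshold (limma) became 0 without the dim filter, with slide as a fixed term and with the replicate block. The count became 0 to 5 with 1 array left out. The 10 members included 8, 6 and 7 with an unadjusted p under 0.05 in the first 3 of these settings, against 14.2%, 13.8% and 16.3% of all transcripts. With 1 array left out, the 0 counts came without vehicle 1, 2 or 3 or TBBC 2, the count of 1 (Abcc3) without TBBC 1, and the count of 5 (Abcc2, Abcc4, Abcb1a, Abcb1b and Abcc3) without TBBC 3. Abcc2 passed with normexp, with trend and robust eBayes and with array weights. The 175 transcripts past the threshold became 761 with normexp, 52 without the filter, 333 with each probe on its own, 1087 with trend and robust eBayes, 48 with slide as a fixed term, 307 on the shared slide and 6 to 274 with 1 array left out. With the replicate block the limma count was 0 (5366 at an unadjusted p under 0.05), and 0 of 6 arrays correlated best with its own number in the other group. The 0 calls in the related lists became 4 with normexp and 4 with trend and robust eBayes, in both cases Abcb11, Pdzk1, Nr1h4 and Hnf4a. The remaining scalings, the authors' value table, flags ignored and mean of probes kept Abcc4 and Abcc3 as the called members. The causes of these shifts were not tested. Abcb1a, dim in vehicle rats, is limited by signal over background.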
